A study of Rattus norvegicus with 15 samples.

Results

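The genes described here encode the slow forms of the muscle contractile machinery, measured in rat gastrocnemius, a mixed calf muscle. The members were 10 genes, Tnni1, Tnnt1, Tnnc1, Myl2, Myl3, Myh7, Tpm3, Casq2, Atp2a2 and Actn2, taken by symbol from the 14217 genes that had a probe set of their own on the Rat Genome 230 2.0 array. They carried 29 of the 31042 probe sets analysed. A further 2 probe sets name Myh7 together with Myh6 and were not used.

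Male Wistar rats, bought at 3.5 weeks of age, received for 4 weeks a diet with 15% casein (CN, 4 arrays) or a calorie-matched diet with 8% casein (LP, 4 arrays). Other rats of both diets were sampled on day 84, after what the study describes as 8 weeks of rebound feeding with the 15% casein diet, and are called CN-R (3 arrays) and LP-R (4 arrays). The sample labels say instead that these rats stayed on their first diet, and which diet they received was not settled here. All rats were fasted for 16 h before sampling, and each array held the RNA of the gastrocnemius of 1 rat. The title of CN-R replicate 4 names it a control while its treatment label names protein restriction; it was kept in CN-R. Arrays of CN and LP rats appear from their values to have been summarized apart from those of CN-R and LP-R rats. LP was therefore set against CN and LP-R against CN-R, and no level was compared between the 2 sets.

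Slow fibers contract through a sarcomere built from its own forms of the shared parts. Force comes from the slow myosin heavy chain with its light chains, calcium reaches the thin filament through the slow troponin complex on tropomyosin, and calcium is stored and pumped back by calsequestrin and the slow form of the calcium pump. The rat gastrocnemius holds mostly fast fibers and a deeper portion rich in slow ones, and several of these genes are also those of the ventricle of the heart. In RNA of a whole muscle, fewer slow fibers and less of these RNAs in each slow fiber cannot be told apart.

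Of the 10 members, 8 had a window upstream of the gene start in the RefSeq table of build GRCr8. Over the 250 bases before the start, both strands were searched for a TATA box (TATAAA), an E-box (CAGCTG), an M-CAT element (CATTCC), a GC box (GGGCGG) and, by their names, the MEF2 and CArG elements. The windows of 4 members are shown because Tnnt1, Myh7 and Myl3 moved together from rat to rat while Casq2 did not over all CN and LP rats. Without LP rat 1 and CN rat 3, Casq2 had r = 0.84 with Tnni1. Matches are in capitals.
Tnnt1, chr1:78348785-78349034, plus strand: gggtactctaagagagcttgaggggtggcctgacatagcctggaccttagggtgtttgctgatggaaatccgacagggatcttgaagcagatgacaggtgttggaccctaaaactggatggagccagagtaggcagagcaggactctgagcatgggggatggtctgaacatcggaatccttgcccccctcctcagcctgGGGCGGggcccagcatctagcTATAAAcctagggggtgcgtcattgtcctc
Myh7, chr15:32438195-32438444, minus strand: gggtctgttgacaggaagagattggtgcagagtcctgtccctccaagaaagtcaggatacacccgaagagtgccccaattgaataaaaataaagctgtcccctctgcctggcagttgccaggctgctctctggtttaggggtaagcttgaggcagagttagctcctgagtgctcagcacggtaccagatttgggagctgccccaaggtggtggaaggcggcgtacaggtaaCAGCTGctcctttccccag
Myl3, chr8:119616844-119617093, plus strand: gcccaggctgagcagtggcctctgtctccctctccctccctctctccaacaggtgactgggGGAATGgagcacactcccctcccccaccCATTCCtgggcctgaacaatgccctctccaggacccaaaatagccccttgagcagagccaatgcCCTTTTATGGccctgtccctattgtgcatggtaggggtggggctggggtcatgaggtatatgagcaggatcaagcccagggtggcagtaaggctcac
Casq2, chr2:192214306-192214555, plus strand: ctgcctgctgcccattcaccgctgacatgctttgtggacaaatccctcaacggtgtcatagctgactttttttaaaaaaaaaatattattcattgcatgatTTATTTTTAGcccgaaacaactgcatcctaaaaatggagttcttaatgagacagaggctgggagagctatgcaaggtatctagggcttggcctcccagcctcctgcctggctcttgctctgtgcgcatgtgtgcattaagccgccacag
Tnnt1 had a TATA box from 30 to 25 bases and a GC box from 51 to 46 bases before the start, Myh7 an E-box from 19 to 14 bases, Myl3 a pair of M-CAT matches and a CArG box, and Casq2 a MEF2 match from 149 to 140 bases. Among all 33469 windows of this length, 12.93% held a TATA box, 11.97% an E-box, 12.06% an M-CAT element, 30.47% a GC box, 2.96% a MEF2 element and 1.5% a CArG box. No motif was shared by more than 4 of the 8 members, the GC box being the one found in 4. The matches are descriptions of the letters and not of bound sites.

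At the end of the feeding period, none of the 10 slow fiber genes differed between LP and CN rats past the threshold. In 9 of the 10 the mean was lower in LP rats, with a median difference of -0.09 on the log2 scale. The 2423 genes that varied over these arrays had a median of 0.03, and 36.8% of them were below 0. Most members moved together and LP rat 1 was the lowest rat for 9 of the 10, so they were not separate observations. Without LP rat 1, Tnni1 was at 0.01, Atp2a2 at 0.04, Casq2 at -0.22 and the other members between -0.04 and 0.03. A probe set was counted as varying when its SD over the set of arrays was above 0.01, since the deposited values of most probe sets are constant over arrays. The members had 13 varying probe sets here, at least 1 for each gene.

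The troponin genes, which set the calcium response of the thin filament, showed the pattern of the group. Tnni1, the inhibitory subunit, read 12.45, 12.44, 12.13 and 12.31 on the log2 scale in CN rats 1 to 4 and 11.97, 12.32, 12.37 and 12.32 in LP rats 1 to 4. The groups overlapped, and LP rat 1 lay below all other rats. The difference was -0.09 (SE 0.12, limma adjusted p = 0.904). Tnnt1, the tropomyosin-binding subunit, read 12.02, 11.97, 11.74 and 11.81 in CN rats and 11.48, 11.83, 11.81 and 11.89 in LP rats. Its difference of -0.13 (SE 0.11) again came with LP rat 1 below every other rat. The calcium-binding subunit Tnnc1 differed by -0.11 (SE 0.10).

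Among the myosin genes, the slow heavy chain Myh7 read 13.10, 13.13, 12.85 and 12.95 in CN rats and 12.80, 13.01, 12.99 and 12.98 in LP rats, a difference of -0.06 (SE 0.08). Its dimmer probe set spread more widely, with 11.19, 11.16, 11.00 and 11.23 in CN rats and 10.30, 11.00, 11.11 and 11.32 in LP rats. In that probe set the LP group held both the lowest rat and the highest rat of the set. The regulatory light chain Myl2 differed by -0.08 (SE 0.10). The essential light chain Myl3 read 12.84, 12.84, 12.74 and 12.85 in CN rats and 12.60, 12.73, 12.81 and 12.79 in LP rats. CN rat 3 stood below its group in Myl3, so that the groups overlapped, and the difference was -0.09 (SE 0.05).

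Tpm3, the slow tropomyosin, differed by -0.12 (SE 0.11) and Atp2a2, the slow calcium pump, by -0.06 (SE 0.11). Actn2, an actinin of the Z-disc found in all fiber types, differed by 0.01 (SE 0.03). Casq2, the cardiac and slow calsequestrin, read 8.48, 8.67, 8.22 and 8.26 in CN rats and 8.56, 8.20, 8.39 and 7.98 in LP rats. Here LP rat 1 was the second highest rat and LP rat 4 the lowest, unlike in the other members. The difference of Casq2 was -0.13 (SE 0.16).

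**Figure D1:**
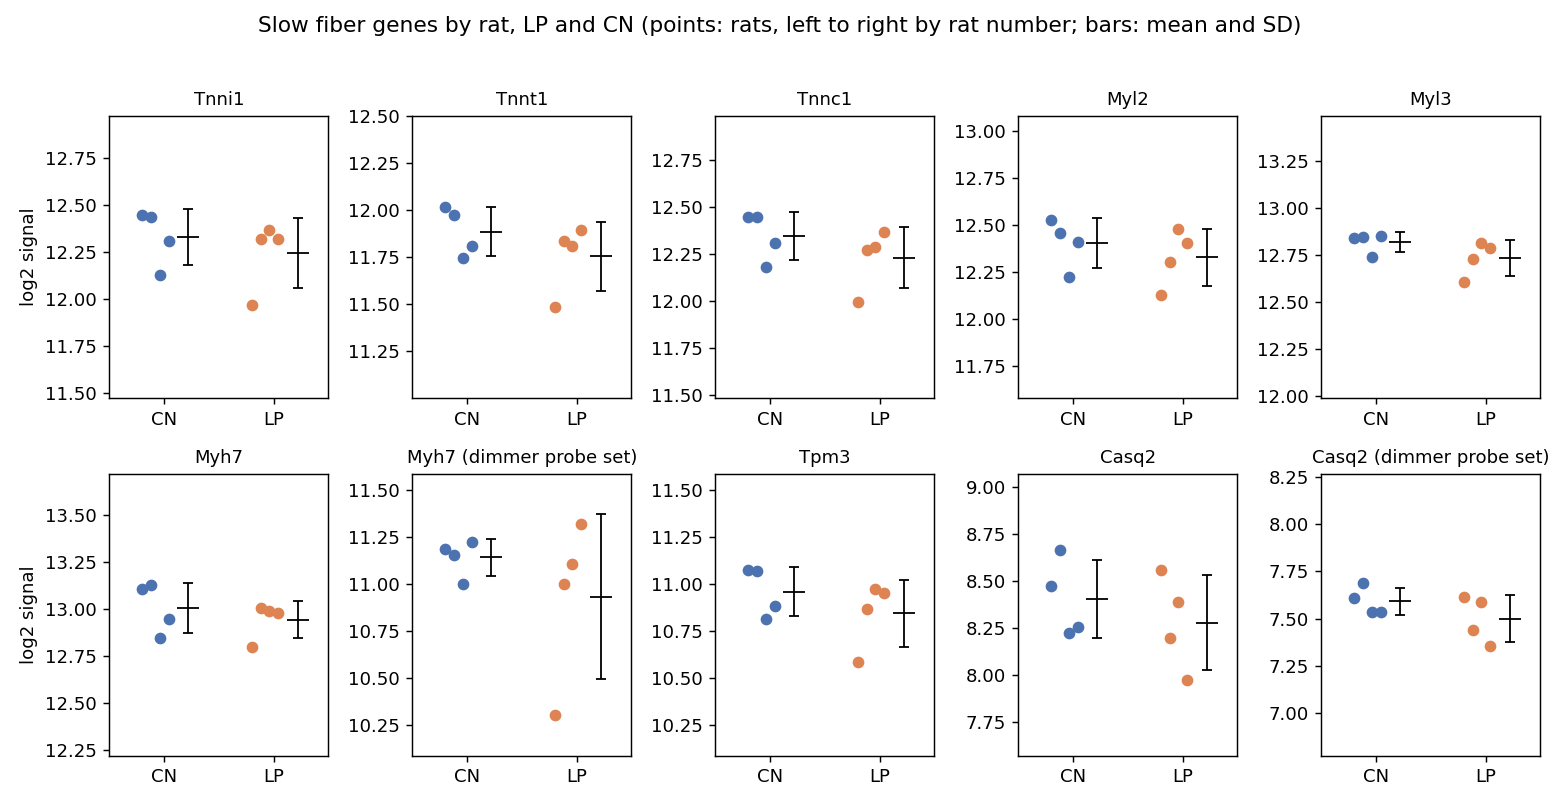
Log2 signal of slow fiber genes in the 4 CN and 4 LP rats, 1 point a rat, with the group mean and SD as bars; every panel spans the same range of log2 signal. The groups overlap in every panel, and LP rat 1 is the lowest rat in all panels but those of Casq2.

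Rank products, which rank the pairwise differences between arrays, called 0 of the 10 genes lower and 0 higher at an estimated proportion of false positives of 0.05. Over the whole array the same rule called 1.67% of probe sets lower and 1.84% higher, which is 13.1% of varying probe sets for the lower ones, and 2.56% of genes were called lower by at least 1 probe set. By limma, 0 of 10 genes passed, as did 0% of all probe sets, and 0 of the 13 varying probe sets had an unadjusted p under 0.05. Over all probe sets, constant ones included, 7.54% did, and the share among varying ones was not taken. No member probe set had all LP rats below all CN rats, against 2.49% of varying probe sets. The calls moved by 1 gene with single arrays: Casq2 was called lower without LP rat 1, and Myh7, by its dimmer probe set, without CN rat 3 or without LP rat 4. Without LP rat 1 the difference turned to 0.01 for Tnni1 and to 0.04 for Atp2a2.

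After the rebound period, 5 of the 10 slow fiber genes, Tnni1, Myl2, Tpm3, Casq2 and Myh7, were called lower in LP-R than in CN-R rats by rank products and 0 were called higher. The lower calls covered 0.753% of all genes, 0.496% of all probe sets and 4.97% of those that varied, and higher calls 0.206% of probe sets. Among the members, 7 of 29 probe sets were called lower, all of them among the 16 that varied. Members varied more often than genes over the array, of which 1755 of 14217 varied, and a constant probe set was never called lower. All 9 members that varied here had a lower mean in LP-R rats in their brightest probe set (Atp2a2 not so with median centring of each array), with a median difference of -0.18, against a median of -0.02 over the 1755 varying genes, of which 67.2% were below 0. After adjustment over all probe sets, limma called 0 of the 10 genes, and 0% of all probe sets. An unadjusted p under 0.05 was seen in 2 of the 16 varying member probe sets and in 5.04% of all probe sets. The latter share includes constant probe sets, and that among varying ones was not taken.

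The differences of the called genes kept their direction without any single array, from -0.37 to -0.20 for Tnni1, from -0.36 to -0.18 for Myl2, from -0.36 to -0.22 for Tpm3, from -0.31 to -0.17 for Casq2 and from -0.51 to -0.23 for the dimmer probe set of Myh7. The 5 calls changed with the null of rank products and with the arrays used. The count was 0 without CN-R rat 1, 2 or 4, 2 without LP-R rat 1, 3 or 4, and 8 without LP-R rat 2. Lower calls over the whole array went from 154 to 9, 7 and 13 probe sets without CN-R rat 1, 2 and 4 and to between 104 and 144 without an LP-R rat. The count was 1, Myh7, when levels were permuted in place of deviations or when disjoint pairs of arrays were used, and 0 when rank products were run on varying probe sets alone.

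Tnni1 read 12.25, 12.16 and 11.93 in CN-R rats 1, 2 and 4 and 11.76, 12.09, 11.88 and 11.61 in LP-R rats 1 to 4. LP-R rat 2 lay among the controls and CN-R rat 4 near the LP-R rats, so the groups overlapped. The mean was 1.21-fold lower in LP-R rats, a difference of -0.28 (SE 0.14, limma adjusted p = 0.975), and the second probe set of Tnni1 gave -0.27 (SE 0.13). The other troponin genes, Tnnt1 at -0.15 (SE 0.12) and Tnnc1 at -0.18 (SE 0.09), were not called.

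Myl2 read 12.37, 12.56 and 12.21 in CN-R rats and 11.92, 12.33, 12.05 and 12.14 in LP-R rats. LP-R rat 2 was the only restricted rat above the lowest control, and the difference was -0.27 (SE 0.13). Myl3, not called, differed by -0.14 (SE 0.07). Myh7 was called through its dimmer probe set, which read 10.52, 10.67 and 10.24 in CN-R rats and 9.61, 10.46, 10.21 and 10.08 in LP-R rats. Of those, LP-R rat 1 was the farthest below, and the difference was -0.39 (SE 0.23). The brighter probe set of Myh7 read 12.90, 12.90 and 12.52 in CN-R rats and 12.64, 12.95, 12.58 and 12.39 in LP-R rats. There the highest rat was LP-R rat 2, and the difference of -0.14 (SE 0.17) was not called.

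Tpm3 read 10.64, 10.58 and 10.52 in CN-R rats and 10.27, 10.54, 10.26 and 10.13 in LP-R rats. All but LP-R rat 2 lay below the controls, and the difference was -0.28 (SE 0.10). Tpm3 makes both slow muscle and cytoskeletal tropomyosins, and of its 12 probe sets 3 varied in this set. The 2 dimmer ones differed the other way, by 0.19 (SE 0.44) and 0.03 (SE 0.06), and were not called, so that the mean over the varying probe sets of Tpm3 differed by -0.02.

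Casq2 read 8.56, 8.56 and 8.44 in CN-R rats and 8.39, 8.52, 8.13 and 8.10 in LP-R rats, a difference of -0.23 (SE 0.12). Its second probe set read 8.07, 8.05 and 8.07 in CN-R rats and 7.90, 7.95, 7.80 and 7.76 in LP-R rats. In this probe set all LP-R rats lay below all CN-R rats, which held for 3.32% of varying probe sets over the array and for 1 of the 16 of the members. The difference was -0.21 (SE 0.05, exact permutation p = 0.0571, two-sided, where the smallest p that 3 against 4 rats allow is 0.0286). Atp2a2 read 12.51, 12.45 and 12.21 in CN-R rats and 12.31, 12.57, 12.36 and 12.23 in LP-R rats. These groups overlapped, with a difference of -0.02 (SE 0.11) that became 0.03 with median centring of each array, and Actn2 was constant over the arrays.

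**Figure D2:**
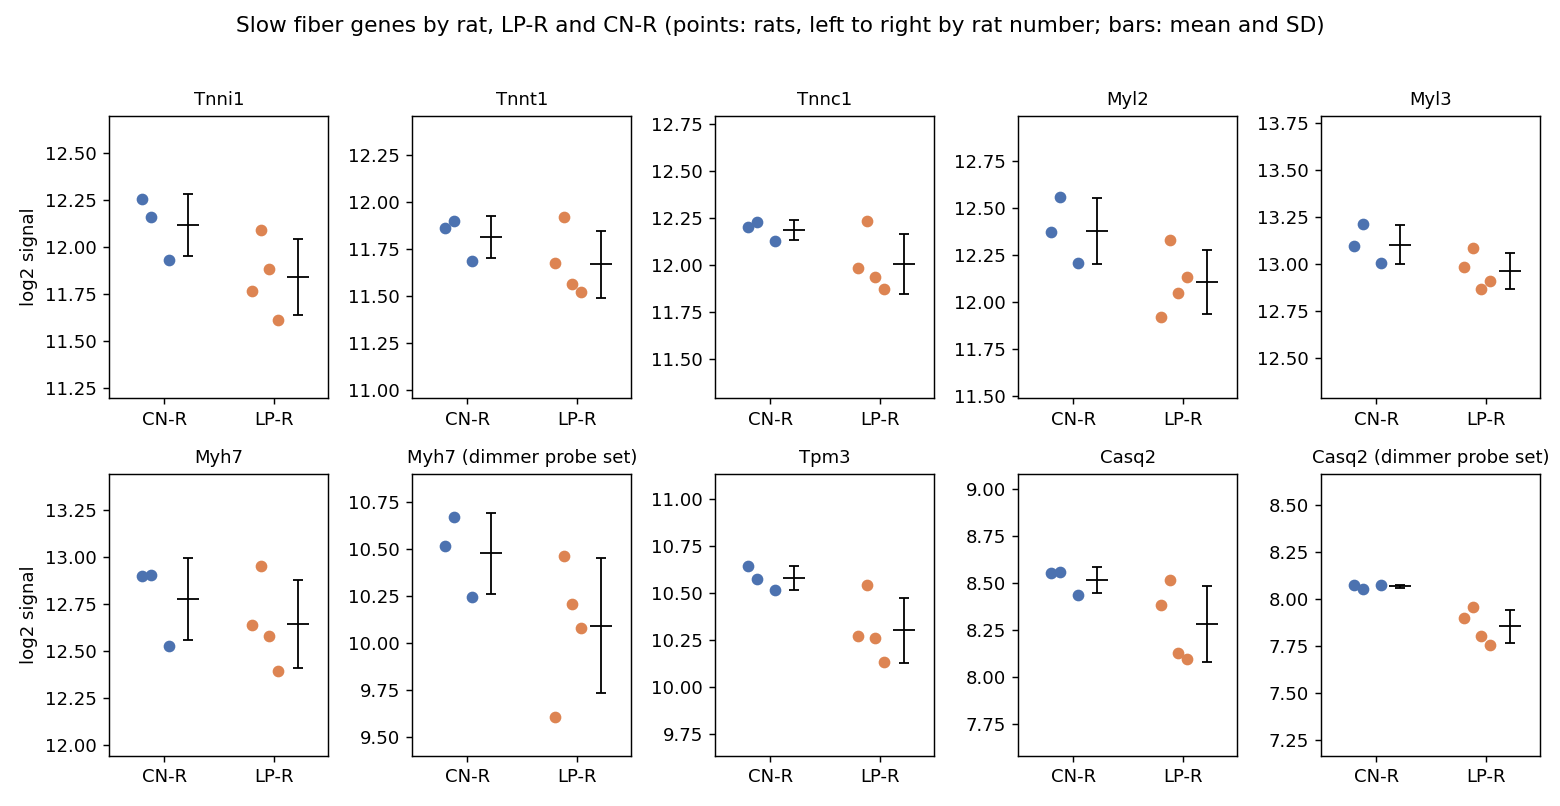
Log2 signal of slow fiber genes in the 3 CN-R and 4 LP-R rats, 1 point a rat, with the group mean and SD as bars; every panel spans the same range of log2 signal. LP-R rat 2 lies with the controls in most panels, and the groups are separate in the dimmer probe set of Casq2 alone.

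**Figure D3:**
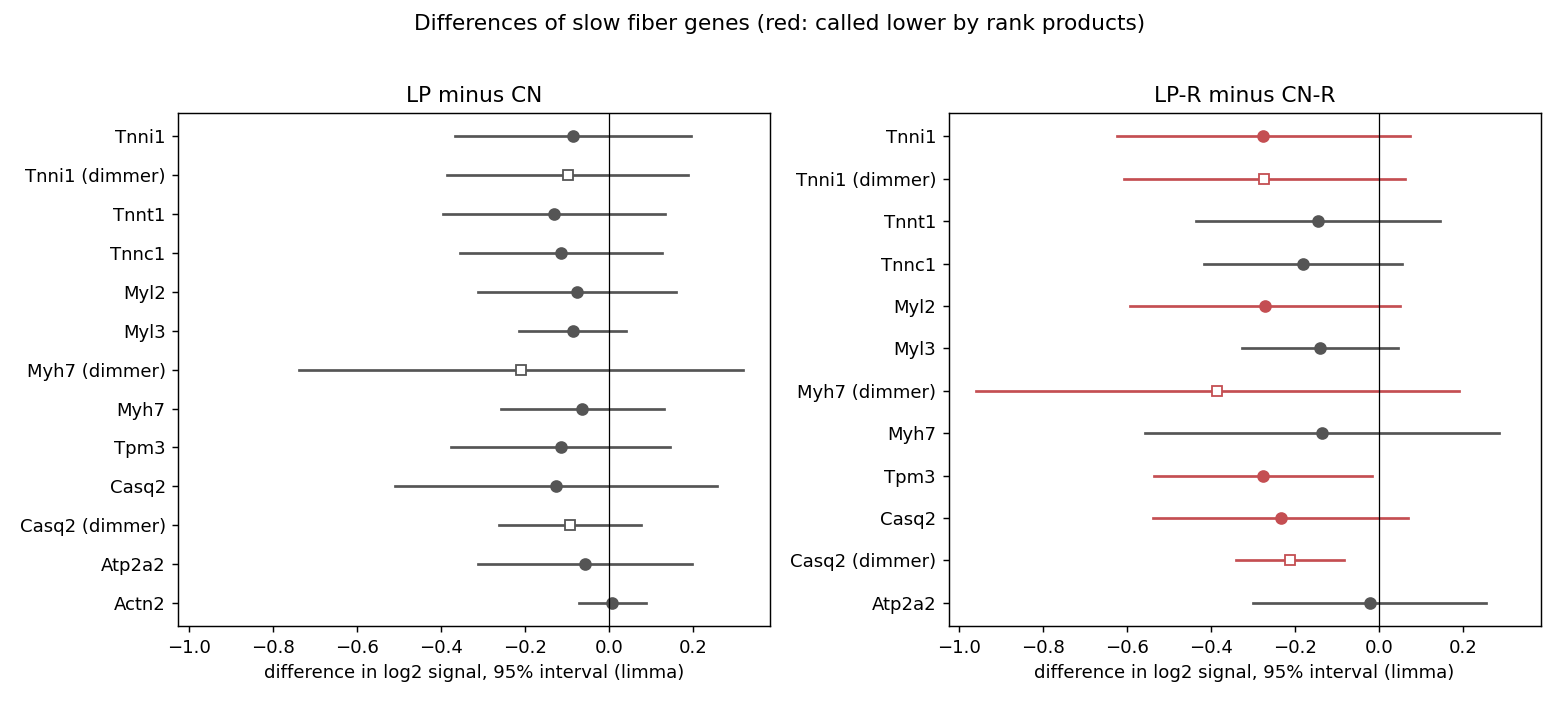
Difference in mean log2 signal, LP minus CN (left) and LP-R minus CN-R (right), with 95% limma intervals; squares are dimmer probe sets and red marks those called lower by rank products. The 2 intervals that leave out 0 are those of Tpm3 and of the dimmer probe set of Casq2, both for LP-R minus CN-R.

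The LP-R difference was larger than the LP difference in size for 8 of the 9 members that varied in both sets. Most of these members moved together, so they were not separate observations, and whether differences of the 2 sets share a scale was not tested. The difference between the changes was tested by exact permutation of the labels within each set, with 2450 splits and two-sided. By this exact permutation test it was -0.19 for Tnni1 (p = 0.378), -0.20 for Myl2 (p = 0.324), -0.16 for Tpm3 (p = 0.404) and -0.11 for Casq2 (p = 0.626), and no member passed after adjustment over all probe sets. The data do not show that the slow fiber genes responded differently at the 2 times.

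Within each set the members moved together from rat to rat. A slow fiber score was taken for each rat as the mean over members of the log2 signal minus its mean over the set. It was 0.13, 0.14, -0.10 and 0.00 in CN rats 1 to 4 and -0.20, -0.02, 0.05 and 0.00 in LP rats 1 to 4. LP rat 1 was the lowest rat for 9 of the 10 members. In the later set the score was 0.17, 0.18 and -0.03 in CN-R rats 1, 2 and 4 and -0.11, 0.15, -0.14 and -0.22 in LP-R rats 1 to 4. The highest rat stood 1.27-fold over the lowest in the first set and 1.32-fold in the second. The mean difference was -0.08 for LP and -0.19 for LP-R rats, with SDs between 0.11 and 0.16 within groups. The LP difference was -0.03 without LP rat 1, -0.06 without CN rat 1, -0.05 without CN rat 2 and -0.13 without CN rat 3, and the LP-R difference ranged from -0.26 to -0.14 without 1 array.

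**Figure D4:**
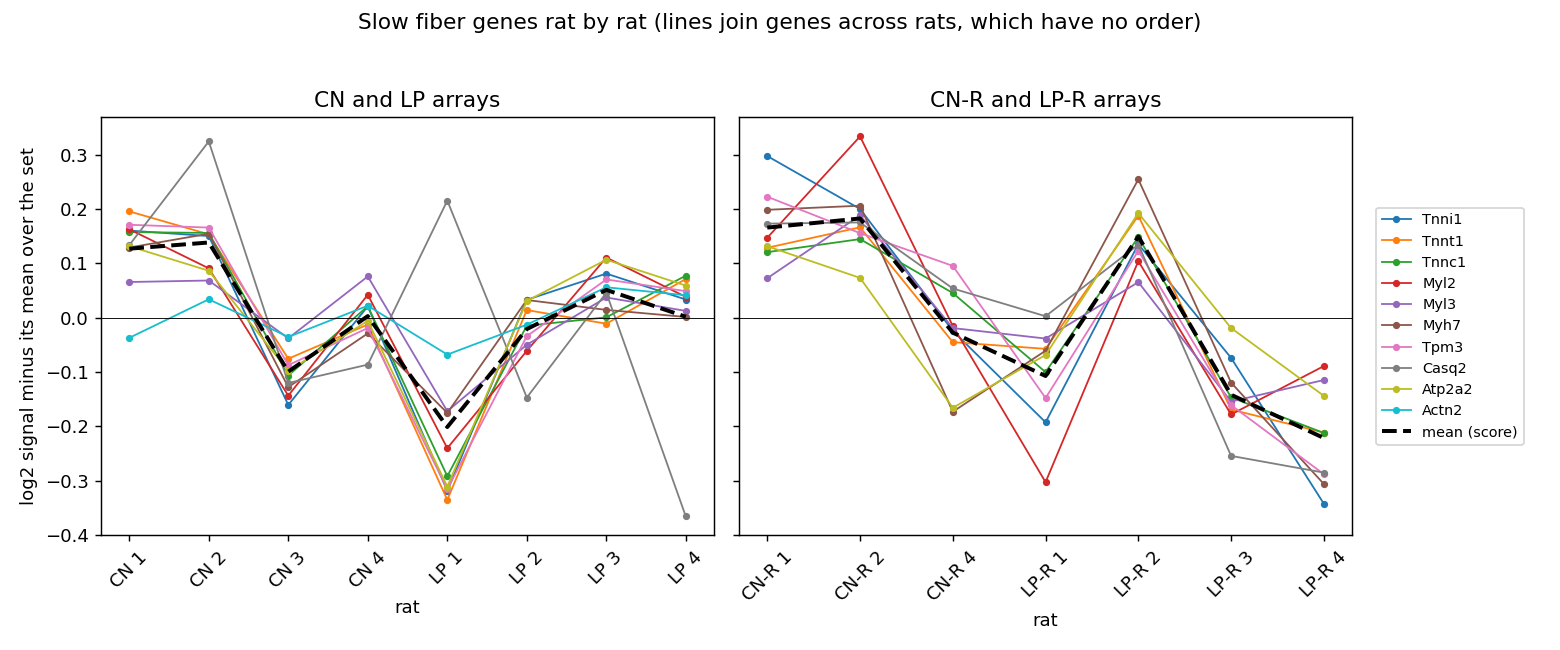
Log2 signal of each slow fiber gene minus its mean over the set, by rat, with the mean over members as a dashed line. The genes run together except, in the CN and LP rats, for Casq2 and to a lesser degree Actn2. There Casq2 was high in LP rat 1 and low in LP rat 4.

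With Tnni1 as the reference, Pearson's r over the 8 CN and LP rats lay between 0.89 and 0.97 for 7 members. The highest was that of Atp2a2 (r = 0.97, Spearman's rho = 0.98, exact permutation p for r = 0.000372) and the lowest of these 7 that of Myl3 (r = 0.89, rho = 0.57, exact p for r = 0.00754). Without LP rat 1 and CN rat 3, the 2 rats farthest from the median of Tnni1, Myl3 fell to r = 0.50 while Tpm3 stayed at 0.95 and Myh7 at 0.93. Actn2 had r = 0.64 (rho = 0.40, exact p = 0.083), which became -0.29 without those 2 rats and so rested on them. Casq2 had r = 0.02 (rho = 0.24, exact p = 0.956) and 0.84 without them, so its low r rested on these rats too.

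Over the 7 CN-R and LP-R rats, r with Tnni1 lay between 0.78 for Myl2 and 0.95 for Tpm3, and Casq2 was at 0.83 (rho = 0.93, exact p for r = 0.0198). Over the 17 relations of both sets, the adjusted exact p of r was at most 0.0452 in the later set, where rho missed 0.05 after adjustment for Myh7 and Atp2a2, at most 0.133. Without CN-R rat 1 and LP-R rat 4, r lay between 0.65 and 0.97. Since group means differ, r was also taken over deviations from the group means, and it then lay between 0.61 and 0.97 in the later set.

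**Figure D5:**
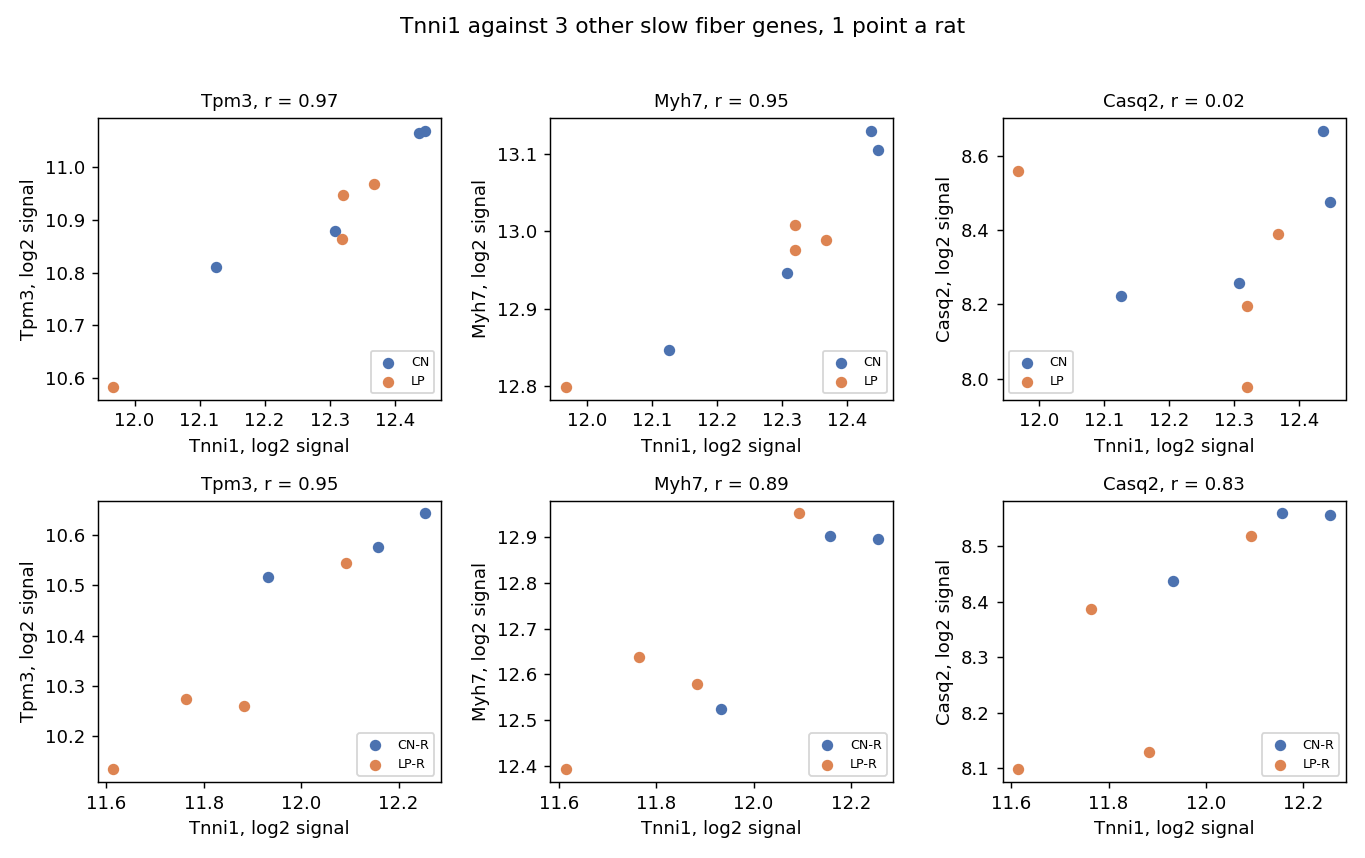
Log2 signal of Tnni1 against Tpm3, Myh7 and Casq2, 1 point a rat, in the CN and LP rats (top) and the CN-R and LP-R rats (bottom). The points of Tpm3 and Myh7 follow Tnni1 in both sets. Over all rats of a set, Casq2 does so in the lower row alone, with r = 0.83 against 0.02. Without LP rat 1 and CN rat 3, the r of Casq2 in the upper row was 0.84.

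Likeness across the array was described by Pearson's r between a gene and the slow fiber score over the deviations from group means of all 15 rats, among the 1206 genes that varied in both sets. Each member was set against a score of the others. Myh7 reached 0.94, Tnnt1 0.94, Tpm3 0.93, Tnni1 0.93, Tnnc1 0.93, Atp2a2 0.92, Myl3 0.85 and Myl2 0.78, ranks between 1 and 9 among 1198 genes. Casq2 reached 0.25 and rank 364, with -0.11 in the first set and 0.84 in the second.

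Outside the members, the 8 genes most alike were Xpo4 (r = 0.93), a nuclear export factor, Car3 (0.89), the carbonic anhydrase abundant in slow fibers, Mn1 (0.86), Mgp (0.85), a matrix protein, Tcf4 (0.81), Foxo3 (0.79), a transcription factor of muscle atrophy, Asb18 (0.77) and Gpx3 (0.77), a secreted glutathione peroxidase. Of these, Xpo4 was called lower in LP-R rats, by -0.40 (SE 0.16), Car3 and Gpx3 were called lower in LP rats, by -0.14 (SE 0.05) and -0.15 (SE 0.07), and Mgp was called higher in LP rats, by 0.14 (SE 0.07). The genes with the lowest r were Selenow (-0.78), a small selenoprotein, Akirin1 (-0.77), Rabgef1 (-0.76) and LOC100909637 (-0.74). None of these 4 was called in either comparison.

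The fast counterparts could be followed only in part, since most of them were constant over arrays. Of the 13 fast fiber genes measured, 9 were constant in the CN and LP arrays, 8 of these at 13 or more on the log2 scale, and 7 in the CN-R and LP-R arrays. These included Tnni2, Tnnt3, Tnnc2, Myl1, Myh1, Myh4 and Tpm1, the fast partners of the troponin, light chain, heavy chain and tropomyosin genes, in their brightest probe sets. The brightest probe set of the array read 14.2. Constant values were not limited to bright probe sets. In both sets 26041 of the 31042 probe sets were constant, among them one of Tpm3 at 5.73 in CN and 5.78 in CN-R rats. Why the fast genes were constant was not tested. In LP rats, Myh2, the heavy chain of type 2A fibers, differed by 0.02 (SE 0.03), Casq1, the fast calsequestrin, by -0.01 (SE 0.03), Pvalb, a calcium buffer of fast fibers, by 0.04 (SE 0.05), and Mylk2, the skeletal myosin light chain kinase, by 0.02 (SE 0.09). In LP-R rats, Atp2a1, the fast calcium pump, differed by 0.02 (SE 0.02), Actn3, the fast actinin, by -0.03 (SE 0.03), Myh2 by -0.05 (SE 0.03), Casq1 by 0.01 (SE 0.04), Pvalb by -0.09 (SE 0.16) and Mylk2 by -0.17 (SE 0.18). None of these was called.

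In dimmer probe sets, fast genes were called higher and none lower. Tpm1 read 8.19 ± 0.44 (SD, n = 4) in CN and 8.50 ± 0.30 (SD, n = 4) in LP rats. In the later set, whose levels were not compared with those of the first, the called Tpm1 probe set was at 9.33 ± 0.09 (SD, n = 3) in CN-R rats. There the LP-R rats were at 9.57 ± 0.19 (SD, n = 4). Myh1, the heavy chain of type 2X fibers, was at 11.09 ± 0.08 (SD, n = 3) in the CN-R rats and at 11.25 ± 0.10 (SD, n = 4) in the LP-R rats. The groups overlapped in Tpm1 in both the LP and the LP-R comparison, and in Myh1 the lowest LP-R rat, at 11.15, met the highest control, at 11.15. These calls changed with single arrays. That of Tpm1 in LP rats was lost without CN rat 1, CN rat 2 or LP rat 4, and both calls in LP-R rats without CN-R rat 1, 2 or 4 or LP-R rat 3. Without LP-R rat 2 the call of Myh1 was kept, and without LP-R rat 4 that of Tpm1. Tnnt3 was called lower in LP rats without CN rat 4, and Mylk2 in LP-R rats without LP-R rat 3, while limma called none of the fast genes (adjusted p between 0.827 and 0.975 for the 3 calls). With varying probe sets alone, rank products called none of them in either comparison. Over the deviations of the 15 rats, r with the slow fiber score was -0.61 for Casq1, -0.53 for Pvalb, -0.38 for Mylk2 and 0.01 for Myh2.

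For the lists that follow, rank products called 2.56% of all genes lower in LP and 0.753% in LP-R rats. All lower calls were of varying probe sets, of which they covered 13.1% in LP and 4.97% in LP-R rats. In their brightest probe set, 2423 of the 14217 genes varied in the first set and 1755 in the second. Higher calls covered 1.84% and 0.206% of all probe sets, and limma called 0 genes of these lists. Among 13 other measured genes of slow or oxidative fibers, 0 were called lower and 2 higher in LP rats, Csrp3 by 0.23 (SE 0.30) and Xirp1 by 0.23 (SE 0.32), while 3 were called lower and 0 higher in LP-R rats. These 3 were Ankrd2, a stretch-responsive protein of slow fibers, by -0.58 (SE 0.31), sarcolipin (Sln), a regulator of the calcium pump, by -0.30 (SE 0.31), and Ldhb, the lactate dehydrogenase subunit of oxidative fibers, by -0.22 (SE 0.11). Myoz2, a calcineurin-binding protein of the Z-disc, differed by -0.17 (SE 0.08) in LP-R rats and was not called. In LP rats the varying genes of smallest p in this list were Hspb6, at 0.05 (SE 0.04), and Ldhb, at -0.13 (SE 0.13), neither called.

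Of 31 measured regulators of fiber type, 17 varied in the CN and LP arrays and 13 in the CN-R and LP-R arrays. In LP rats 5 were called lower and 0 higher, where 2.56% of all genes and 13.1% of varying probe sets were called lower. These were Ppargc1a, Mef2c, Foxo1, Nrip1 and Errfi1. Foxo1, a transcription factor of the fasting response, differed by -0.27 (SE 0.19) and Mef2c, a factor for muscle gene promoters, by -0.27 (SE 0.19). Ppargc1a, a coactivator of mitochondrial genes, was at -0.06 (SE 0.63), its corepressor counterpart Nrip1 at -0.25 (SE 0.24) and Errfi1, an inhibitor of growth factor receptors, at -0.34 (SE 0.31). In LP-R rats, where 0.753% of all genes and 4.97% of varying probe sets were called lower, 3 were called lower. Nrip1 alone was called higher, by 0.32 (SE 0.35). The lower ones were Esrrg, a nuclear receptor that favours oxidative fibers in mouse muscle, by -0.22 (SE 0.07), Myod1, the myogenic factor richer in fast muscle, by -0.41 (SE 0.18), and Errfi1, by -0.30 (SE 0.24). Among sarcomere genes of both fiber types, Mybph was called higher in LP rats by 0.35 (SE 0.25) and lower in LP-R rats by -0.54 (SE 0.27), Tmod1 was at 0.06 (SE 0.03) in LP and Tmod4 at -0.15 (SE 0.03) in LP-R rats, neither called. In all, 2 of 15 of these were called lower and 2 higher in LP rats, and 2 lower and 1 higher in LP-R rats, Neb being called both ways by different probe sets in each.

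Glycolytic enzymes, the fuel pathway of fast fibers, were called in 1 of 12 genes in LP rats, Pygm, lower, by a dimmer probe set, and in 0 of 12 in LP-R rats. The varying genes of smallest p were Phka1 at -0.04 (SE 0.02) and Pgam2 at 0.04 (SE 0.02) in LP rats, and Phkg1 at -0.14 (SE 0.24) and Pfkm at 0.03 (SE 0.06) in LP-R rats. Of 11 developmental and denervation genes, Runx1, by -0.22 (SE 0.19), and Myl4, by -0.60 (SE 0.37), were called lower in LP rats. Gadd45a, by -0.24 (SE 0.19), was called lower in LP-R rats, where Chrna1 was at 0.04 (SE 0.06).

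Most varying markers of other cell types also had lower means in the later comparison, as did 67.2% of the 1755 varying genes, whose median was -0.02. In LP-R rats the mean was lower in 6 of 6 varying fibroblast and matrix markers, with a median of -0.11, in 5 of 5 tendon markers (-0.09), in 3 of 3 nerve and Schwann cell markers (-0.11), in 3 of 3 adipocyte markers (-0.20), in 3 of 4 smooth muscle and pericyte markers (-0.11), in 3 of 4 endothelial markers (-0.05) and in the 1 varying blood cell marker (-0.36). The mean over fibroblast markers, set to 0 over the arrays, ranged from -0.07 to 0.20 in CN-R and from -0.19 to 0.08 in LP-R rats, that of nerve markers from -0.03 to 0.18 and from -0.06 to -0.01, and that of tendon markers from -0.01 to 0.19 and from -0.20 to 0.10. Smooth muscle markers ranged from 0.02 to 0.13 and from -0.12 to 0.07, adipocyte markers from -0.07 to 0.27 and from -0.28 to 0.01, endothelial markers from -0.15 to 0.33 and from -0.14 to 0.12, and the blood cell marker from -0.04 to 0.68 and from -0.42 to 0.15. Rank products called 1 adipocyte and 1 blood cell marker lower and no other of these. Over the 7 rats, r of these marker means with the slow fiber score was 0.90 for smooth muscle (rho = 0.79), 0.80 for adipocyte (rho = 0.79), 0.75 for fibroblast (rho = 0.54), 0.67 for blood cell (rho = 0.64), 0.62 for tendon (rho = 0.43), 0.56 for nerve (rho = 0.43) and 0.50 for endothelial markers (rho = 0.50), values that share their arrays and the group difference. Over deviations from the group means, r lay between 0.26 for nerve and 0.84 for smooth muscle markers. Without CN-R rat 2 and LP-R rat 4, the rats farthest from the median, r ranged from 0.33 for the blood cell marker to 0.96 for smooth muscle markers. Their part in the lower slow fiber values of LP-R rats was not tested. Of 10 heart muscle markers 1, Myl4, varied over the arrays, and its mean was higher in LP-R rats, by 0.04.

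In LP rats these markers did not share a direction. A lower mean was seen in 3 of 7 fibroblast, 2 of 8 endothelial, 1 of 5 adipocyte, 2 of 4 smooth muscle, 0 of 3 nerve, 4 of 5 tendon and 1 of 1 blood cell markers, and rank products called 4 endothelial and 3 adipocyte markers higher and 3 fibroblast markers lower, beside 1 smooth muscle marker and 1 tendon marker lower and 1 tendon marker higher. Over the 8 CN and LP rats, r with the score was 0.75 for tendon markers (rho = 0.74), 0.46 for the blood cell marker (rho = 0.52) and between -0.38 and 0.33 for the smooth muscle, endothelial, fibroblast, adipocyte and nerve markers. Without CN rat 2 and LP rat 1 it was 0.66 for tendon markers, 0.71 for the blood cell marker and between 0.14 and 0.45 for the other 5, so the negative values rested on those rats. Whether this bears on the slow fiber values of LP rats was not tested.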

How the data were processed

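RNA of the gastrocnemius of 15 rats was hybridised to Affymetrix Rat Genome 230 2.0 arrays. The deposited values are log2 signals per probe set, which the authors made with FARMS. The CN and LP arrays appear to have been summarized apart from the CN-R and LP-R arrays, which the study's methods do not state. Of the probe sets constant in both sets, 94.7% differ in level between them. After 57 control probe sets were left out, 31042 probe sets were analysed as deposited, 20826 of them with 1 symbol. A gene was described by its brightest probe set, and was called when any of its probe sets was. Groups were compared by rank products (100 permutations of deviations from each probe set's mean, seed 1, estimated proportion of false positives at most 0.05) and limma 3.58.1 in R 4.3.3 (Benjamini-Hochberg adjusted p at most 0.05); SE and intervals are limma's. Deviations were permuted in place of levels after the files had been seen, because permuted levels gave uneven lower and higher calls in simulated arrays without a change. Scripts ran in Python 3.11.15 and were tested on simulated data. The number of arrays limits the precision. The p-values of limma and of the exact permutations set a difference against the spread between these rats. Rank products instead takes its proportion of false positives from values permuted across probe sets within each array. Members, gene lists and tests were chosen with earlier results of these data known. Named were all members, all fast fiber genes, the 8 genes most and the 4 least like the slow fiber score and, in the other lists, the 2 of smallest limma p in each comparison among genes that varied, a limit set after the files had been seen. It passed over constant genes of smaller p, such as Smtnl1 in LP-R rats, at a difference of -0.000305, and Acta1, Ttn and Tpi1 in LP rats. Further called genes of those lists were named after their values were seen.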

Additional observations from a re-analysis of the deposited data

Results flagged for a closer look

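In groups of 4 rats, single rats stood apart from the rest of their group in 3 of the 29 groups of member values that were examined. There the gap to the nearest rat, as a share of the group's range, was above Dixon's critical value. Chance gives about 1 in 20 for independent groups. The 29 groups were not independent, since most members moved together in the same rats, so 3 of 29 cannot be set against that share. LP rat 1 stood low in Tnni1, at 11.97 on the log2 scale, and in Myh7, at 12.80. CN rat 3 stood low in Myl3, at 12.74.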

How the results depend on the processing

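The 5 lower calls in LP-R rats became 0 with varying probe sets alone, 0 with CN-R replicate 4 counted as LP-R (where the score difference was -0.24 and lower calls over the whole array fell from 154 to 13 probe sets), 1 without probe sets under the median mean signal, and 0 with limma under the default prior, the trend and robust prior, all 4 groups in one fit or the replicate block. Chosen after seeing the data, levels permuted in place of deviations gave 1 and disjoint pairs of arrays gave 1. Without 1 array the lower calls ranged from 0 to 8 and the higher calls from 0 to 1, the latter Tpm3 by a dimmer probe set without LP-R rat 1 or 2. Quantile normalization, median centring and another seed gave the same 5 genes. In LP rats the 0 lower calls became 1, Myh7, with quantile normalization, and ranged from 0 to 1 without 1 array. Fewer arrays enter by construction. Leaving out probe sets also changes the null, since rank products permutes values across probe sets within each array. With varying probe sets alone, all lower calls went from 154 to 2 probe sets in LP-R rats and from 519 to 23 in LP rats. Causes of these changes were not tested. Whether replicate numbers pair the rats was not settled. Same-numbered rats correlated in their deviations at 0.55, -0.03, 0.17 and 0.40 in the first set and at 0.04, 0.19 and 0.22 in the second. The best match had the same number for rats 1, 3 and 4 of the first set and rat 4 of the second, and another number for the other rats. The replicate block gave 0 calls among members in both comparisons. These calls cannot decide the pairing, as limma gave 0 calls without the block too. The median r with Tnni1 in the CN-R and LP-R rats moved from 0.86 to 0.79 with median centring. Of the values of single members under an alternative, 201 kept direction and call in LP rats, 4 gained a call and 7 turned direction without a call, and in LP-R rats 122 kept both, 66 lost a call, 2 gained one, 4, all of Atp2a2, turned direction and 1, Tpm3 over its varying probe sets, shrank to -0.02. With median centring the LP-R differences of the 5 called genes were smaller in size. They were -0.22 for Tnni1, Myl2 and Tpm3, -0.18 for Casq2 and -0.33 for the dimmer probe set of Myh7. The score kept its sign under every alternative run, and no member passed in the difference between changes under any.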
